A study of Mus musculus with 10 samples.

Results

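The comparison described here asks how the kidney transcriptome differs when miR-21 is missing from kidneys in which Pkd2 is already deleted. RNA was measured by sequencing of whole kidneys from mice at postnatal day 21. Of the groups sequenced, 3 libraries came from mice with both Pkd2 alleles floxed and deleted by Pkhd1Cre (SM), and 3 came from mice with that same deletion and the miR-21null genotype (DM). Both groups therefore carry the Cre driver and the Pkd2 deletion, and they differ by the miR-21 allele. A further 4 wild-type libraries (WT) give reference levels, and the sources used here do not say whether those animals carried the driver or the floxed alleles. Each library carries its own animal number, so the replicates are separate mice. Pkhd1Cre is active mainly in the collecting duct, so Pkd2 is lost from part of the cells in each kidney, whereas RNA was taken from all of them. The table of DM against SM holds 30431 rows, and all 23276 rows that carry a gene name are the genes described here. The remaining 7155 rows are assembled loci without a name. Every log2 fold change, p and adjusted p below is a value of the authors' deposited table of the named comparison, from edgeR's likelihood ratio test, with Benjamini-Hochberg adjustment over all 30431 rows. The tables give no value for a single library, so it cannot be shown whether the libraries of both groups overlap, and the depth of each is unknown. The error given is the standard error implied by the test (SE). Levels per group are given as CPM, counts scaled to library size. They were worked out from each row's deposited average and its contrasts, and are therefore fitted levels with no spread of their own. They are not divided by gene length and are not compared between genes.

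Polycystin-2, the product of Pkd2, is a cation channel of the primary cilium, and its loss from tubule cells leads to cysts. miR-21 is a microRNA that rises in many injured or proliferating tissues, including cystic kidney. A microRNA guides Argonaute to messenger RNAs, mostly through pairing of its seed, bases 2 to 8, with the 3′ UTR, and this lowers the target's stability or translation. Loss of a microRNA therefore removes repression from its direct targets, and other transcripts can move as later effects.

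The mature miR-21 strands are shown because their seed defines the words searched for in the 3′ UTRs. They are RefSeq sequences on GRCm38.p6, written 5′ to 3′ with the seed in capitals. The guide strand, miR-21a-5p, lies at chr11:86584120-86584141 on the minus strand, and the opposite strand of the hairpin, miR-21a-3p, at chr11:86584082-86584103.
mmu-miR-21a-5p: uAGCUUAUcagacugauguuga
mmu-miR-21a-3p: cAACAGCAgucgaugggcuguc

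A 3′ UTR that holds ATAAGCTA has the longest match to the guide strand, an 8mer, made of the complement of the seed followed by A. The 4 sites of 30 bases below are shown because the genes are often reported as miR-21 targets, and because they let the pairing word be compared in different surroundings. They are transcript-strand sequences of GENCODE 3′ UTRs on GRCm38, with the 8mer in capitals. The Pdcd4 site lies at chr19:53929421-53929450, the Reck site at chr4:43944396-43944425, the Spry1 site at chr3:37643862-37643891 and the Cdc25a site at chr9:109892930-109892959, all on the plus strand.
Pdcd4: tgggtgttctgATAAGCTActttctaagtg
Reck: tacagtttgaaATAAGCTAttaatgtaata
Spry1: taagtgcttaaATAAGCTAtatattaatct
Cdc25a: ggctacaggacATAAGCTAaccttcccaga

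The perturbed loci were read first. Pkd2 stood at 239 CPM in WT, 180 CPM in SM and 170 CPM in DM, and its log2 fold change between the last pair was -0.08 ± 0.21 (SE) with an adjusted p of 1 in the authors' deposited table. Against wild type, Pkd2 had -0.41 ± 0.20 in SM (adjusted p = 0.179) and -0.49 ± 0.20 in DM (adjusted p = 0.0838). Neither passed edgeR's test after adjustment, so these rows do not establish the deletion. The row of the miR-21 gene was at the lowest level of the table, 0.0514 CPM, in all 3 groups, so it does not check the miR-21 label. Vmp1 (chromosome 11, 86583865 to 86683836, GRCm38), an autophagy gene whose annotated span contains the miR-21 hairpin on the same strand, stood at 256 CPM in DM. Its log2 fold change of 1.07 ± 0.32 for DM against SM in the authors' deposited table had p = 0.000927 and did not pass after adjustment (adjusted p = 0.32). Against wild type, DM had 1.33 ± 0.30 and passed edgeR's test (adjusted p = 0.000214), and SM had 0.26 ± 0.30 and did not (adjusted p = 0.729). The labelled tissue was checked against kidney genes. Umod, the thick limb's uromodulin, stood at 2860 CPM in SM and 2980 CPM in DM. The proximal tubule receptor Lrp2 stood at 902 and 1020 CPM, the loop transporter Slc12a1 at 855 and 1050 CPM, and the collecting duct water channel Aqp2 at 231 and 269 CPM.

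Few genes differed. At an adjusted p below 0.05, 18 of 23276 named genes passed (0.0773%), of which 11 rose (0.0473%) and 7 fell (0.0301%) in DM. Of these 18, 11 had an average of at least 1 CPM, 9 higher and 2 lower, and the other 7 lay below that level. Of the 11 that rose, 6 belonged to the lists of immunity-related GTPases, guanylate-binding proteins and antiviral interferon-stimulated genes. The log2 fold changes of the genes that rose ran from 2.39 to 7.99, and those of the genes that fell from -1.67 to -5.79, in the authors' deposited table. All 18 had an absolute log2 fold change of at least 1. Among the 14037 named genes of at least 1 CPM, the median log2 fold change was 0.00, the 5th percentile -0.43 and the 95th 0.42. The median SE was 0.26, and the approximate 95% interval lay within a log2 fold change of 1 in either direction for 11750 of them (83.7%). At an unadjusted p below 0.05, 218 of the 14037 were higher (1.55%) and 189 lower (1.35%), which serves below as the background for counts over lists. Those counts are over all members with a row, so in some lists they include genes below 1 CPM, which this background does not cover.

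**Figure D1:**
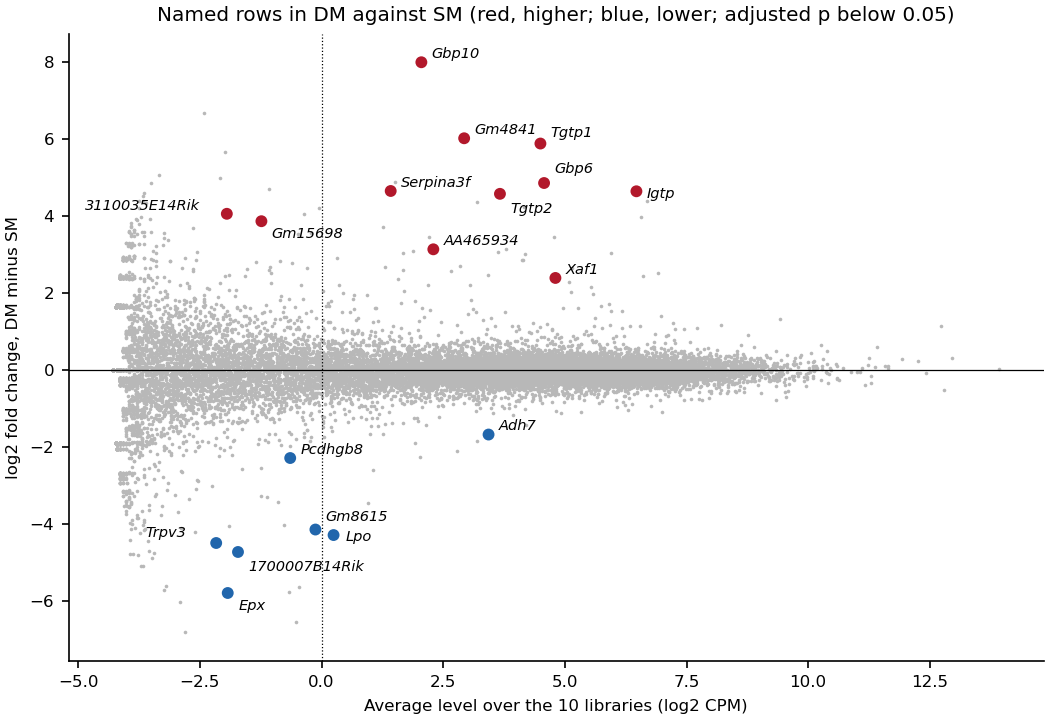
Deposited log2 fold change of DM against SM (vertical axis) against the average level over the 10 libraries in log2 CPM (horizontal axis), 1 point per named gene, with genes at adjusted p below 0.05 in red (higher) or blue (lower) and labelled. The dotted line marks 1 CPM, the 11 genes that rose reach 7.99, the 7 that fell reach -5.79, and the 5th and 95th percentiles of genes of at least 1 CPM are -0.43 and 0.42.

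The immunity-related GTPases (IRG) held 3 of the genes that rose. These proteins, induced mainly by interferon gamma, load onto the vacuoles of intracellular pathogens and disrupt them. All 9 members of at least 1 CPM, of 13 with a row, had positive log2 fold changes, from 0.22 to 5.88 with a median of 4.36, against 0.00 over all such genes. Over all 13 the median was 2.58, and 2 were negative. Of the 13, 3 rose at adjusted p below 0.05 and 8 had an unadjusted p below 0.05, all higher. Summed over the 9 members, the level was 106 CPM in SM and 1190 CPM in DM. Tgtp1 (chromosome 11, 48985327 to 48994172), a GTPase of this family, stood at 1.37 CPM in WT, 1.22 CPM in SM and 72.2 CPM in DM. That was a rise from SM to DM of 5.88 ± 1.27 on the log2 scale (adjusted p = 0.0122) in the authors' deposited table. Its neighbour Tgtp2 (chromosome 11, 49057194 to 49064206) rose from 1.6 to 38.3 CPM, by 4.58 ± 1.10 (adjusted p = 0.0378) in the authors' deposited table. Igtp (chromosome 11, 58199556 to 58207591), also known as Irgm3, a regulatory member of the family, rose from 10.9 to 272 CPM, by 4.64 ± 1.06 (adjusted p = 0.0231) in the authors' deposited table. For SM against WT, Tgtp1, Tgtp2 and Igtp had log2 fold changes of -0.16 ± 0.98, -0.17 ± 0.90 and 0.25 ± 0.85 in the authors' deposited table. The fitted levels of WT and SM thus lay close together for these 3 genes, with wide errors, and that of DM lay apart from both.

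Other members of the family missed the threshold with changes of similar size. Iigp1 (Irga6), an effector of the family, stood at 14.9 CPM in SM and 315 CPM in DM, 4.40 ± 1.10 in the authors' deposited table (adjusted p = 0.0714). Gm12250, listed with the family, stood at 1.38 and 28.3 CPM, 4.36 ± 1.08 (adjusted p = 0.0694). Both were among the 3 genes just outside the threshold, with Gbp2 below. Irgm1 and Irgm2, named after their values were seen, had log2 fold changes of 2.52 ± 0.71 and 3.05 ± 0.82 in the authors' deposited table (adjusted p = 0.22 and 0.147). Gm4841 (chromosome 18, 60268305 to 60273272), an interferon-inducible GTPase gene outside that list, rose from 0.377 to 24.5 CPM, by 6.02 ± 1.34 (adjusted p = 0.0177) in the authors' deposited table.

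The guanylate-binding proteins (GBP), larger GTPases that coat bacteria and pathogen vacuoles and help to start inflammasome signalling, were also higher in DM for most members. Of 11 members of at least 1 CPM, 10 had positive log2 fold changes, and the range was -0.60 to 7.99 with a median of 3.04 (3.05 over all 12 with a row). Of the 12 with a row, 2 rose at adjusted p below 0.05 and 10 had an unadjusted p below 0.05, all higher. Their summed level was 99.1 CPM in SM and 720 CPM in DM. Gbp6 (chromosome 5, 105270702 to 105293698) stood at 2.87 CPM in WT, 2.52 CPM in SM and 73 CPM in DM, a rise of 4.86 ± 1.16 (adjusted p = 0.0357) in the authors' deposited table. Gbp10 (chromosome 5, 105215699 to 105239533) stood at 0.107 CPM in WT and 13.6 CPM in DM, with an adjusted p of 0.0245 in the authors' deposited table. Its level in SM, 0.0534 CPM, was next to the lowest of the table, so its fitted log2 fold change of 7.99 ± 1.84 depends on the authors' prior count. Gbp2, a broadly expressed member, stood at 18.1 CPM in SM and 284 CPM in DM, 3.97 ± 1.0 in the authors' deposited table (adjusted p = 0.0714), just outside the threshold.

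The SEs of these genes were wide. The SE of Tgtp1 was 5.30 times the median SE of genes of like level (average within 0.5 on the log2 scale), that of Gbp10 5.26 times, Iigp1 5.08 times, Igtp 4.89 times and Gbp6 4.87 times. The median ratio was 3.81 in the IRG list, against 1.20 for Lpo and 0.90 for Pkd2. Genes were matched on the average over the 10 libraries, which for Tgtp1 was 22.6 CPM, against 1.22 CPM in SM. Low counts in SM also widen the SE, so the ratio does not separate level from spread between mice. Values of single mice were not analysed here, so how the 3 mice of a group contribute to these rises was not tested. Several of these genes are near copies of each other, and the sources used here do not say how shared reads were counted. In GENCODE, Tgtp1 overlaps Gm12185 on the same strand, Igtp overlaps Irgm2, and Gbp6 and Gbp10 overlap Gm43302, so the split of counts among them is uncertain. Against wild type, the deposited log2 fold changes of SM and of DM share the same 4 WT libraries. Beside each other, the medians of the IRG list were 0.25 and 4.40, and those of the GBP list 0.50 and 3.16.

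**Figure D2:**
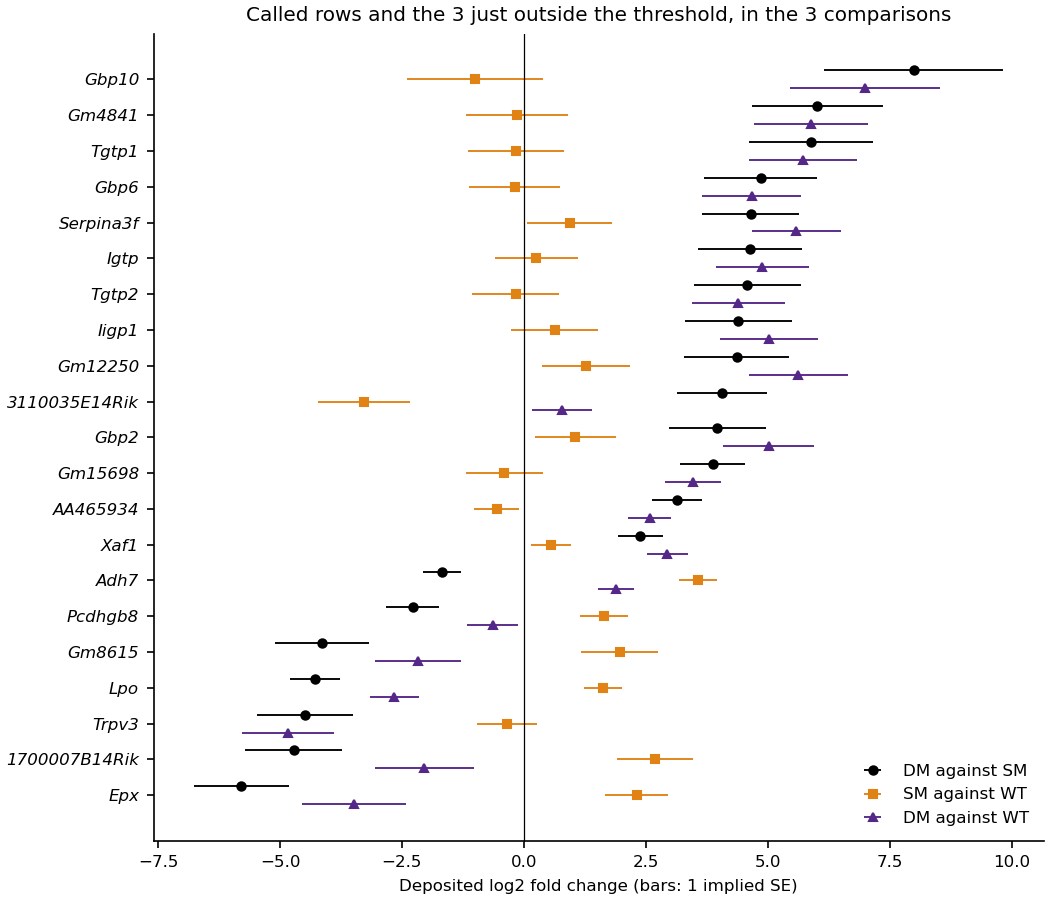
Deposited log2 fold changes (horizontal axis) of the 18 genes that passed and the 3 just outside the threshold, for DM against SM (circles), SM against WT (squares) and DM against WT (triangles), with bars of 1 implied SE, where the comparisons share libraries. Squares lie near 0 for Tgtp1 (-0.16), Tgtp2 (-0.17) and Igtp (0.25) and farther from it for Gm12250 (1.27), Gbp2 (1.05) and Gbp10 (-1.0), and Adh7 has its triangle (1.89) between 0 and its square (3.57).

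Promoters are shown for genes of both GTPase families because these moved together. The sequences are RefSeq promoters on GRCm38.p6, 300 bases from 250 before to 50 after the start site, written 5′ to 3′ on the gene's strand. Capitals mark the words of the pair of interferon motifs searched for. The interferon-stimulated response element core was searched as a pair of GAAA words with any 2 bases between them, on both strands, and the gamma-activated sequence as TTCNNNGAA, which reads the same on both strands, and the words may overlap. Igtp is at chr11:58199306-58199605 on the plus strand, Tgtp1 at chr11:48992197-48992496 and Tgtp2 at chr11:49064163-49064462 on the minus strand, and Gbp2 at chr3:142620413-142620712 on the plus strand.
Igtp: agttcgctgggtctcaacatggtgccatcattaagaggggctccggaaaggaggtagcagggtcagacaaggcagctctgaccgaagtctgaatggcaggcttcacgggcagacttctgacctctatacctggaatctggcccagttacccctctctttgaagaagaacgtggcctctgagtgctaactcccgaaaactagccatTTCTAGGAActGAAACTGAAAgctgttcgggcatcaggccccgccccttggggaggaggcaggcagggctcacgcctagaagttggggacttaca
Tgtp1: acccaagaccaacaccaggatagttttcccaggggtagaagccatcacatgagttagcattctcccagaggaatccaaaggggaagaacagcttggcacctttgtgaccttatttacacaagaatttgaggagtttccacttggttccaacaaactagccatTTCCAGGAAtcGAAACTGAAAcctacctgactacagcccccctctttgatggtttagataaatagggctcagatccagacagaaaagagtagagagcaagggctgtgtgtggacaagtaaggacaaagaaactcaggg
Tgtp2: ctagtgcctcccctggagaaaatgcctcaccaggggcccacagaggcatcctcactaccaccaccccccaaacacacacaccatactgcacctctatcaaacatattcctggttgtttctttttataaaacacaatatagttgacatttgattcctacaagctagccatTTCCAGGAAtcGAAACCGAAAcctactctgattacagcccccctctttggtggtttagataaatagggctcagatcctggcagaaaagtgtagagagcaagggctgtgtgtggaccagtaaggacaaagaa
Gbp2: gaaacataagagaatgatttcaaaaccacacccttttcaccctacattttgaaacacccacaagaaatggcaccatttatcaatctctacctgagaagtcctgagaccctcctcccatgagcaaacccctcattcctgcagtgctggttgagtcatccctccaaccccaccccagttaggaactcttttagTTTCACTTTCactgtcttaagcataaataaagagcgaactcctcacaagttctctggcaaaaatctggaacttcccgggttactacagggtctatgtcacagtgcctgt

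In Igtp, Tgtp1 and Tgtp2 the gamma-activated word stands just before the response element word, whereas Gbp2 holds the response element on the opposite strand and no gamma-activated word in this window. RefSeq promoters were matched for 14 of the IRG and GBP genes. The response element word was in 11 of these genes (78.6%), the gamma-activated word in 7 (50%) and both in 7. Over all 27025 genes with a RefSeq promoter, 3.99% held the response element word and 9.55% the gamma-activated word (3.44% and 8.3% of the 32851 promoters). The 3 genes of the 14 without a response element word were 9930111J21Rik2, Gm5431 and Ifi47, with log2 fold changes of -0.80, 0.81 and -0.41 in the authors' deposited table. The 11 with the word ranged from 0.22, in 9930111J21Rik1, to 5.88, in Tgtp1. The 3 without it all averaged less than 1 CPM and the 11 with it at least 1 CPM, so level differs along with the word. Whether the word goes with the size of the change was not tested. Of 27 antiviral interferon-stimulated genes matched, 17 held the response element word (63%), against 5 of 18 genes of MHC class I and antigen processing and 0 of 8 MHC class II genes. A word match is a description of the sequence and not a measured binding site.

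Antiviral interferon-stimulated genes were higher by smaller amounts. Their median log2 fold change was 0.62, and 34 of 35 members of at least 1 CPM were positive, but 1 of 39 rose at adjusted p below 0.05 and 8 had an unadjusted p below 0.05, all higher. That member was Xaf1 (chromosome 11, 72301629 to 72313733), a partner of the apoptosis inhibitor XIAP. It stood at 8.88 CPM in WT, 13 CPM in SM and 68.4 CPM in DM, a rise of 2.39 ± 0.46 (adjusted p = 0.000855) in the authors' deposited table.

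None of 22 interferon regulators passed edgeR's test after adjustment, and 8 had an unadjusted p below 0.05, all higher. Nlrc5, the coactivator of MHC class I genes, stood at 4.28 CPM in SM and 37.7 CPM in DM, 3.14 ± 0.89 (adjusted p = 0.22) in the authors' deposited table. The interferon gamma gene itself, Ifng, named after its value was seen, averaged 0.106 CPM and had 2.42 ± 1.38 (adjusted p = 1) in the authors' deposited table.

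Genes of antigen presentation leaned the same way without passing. Among 23 genes of MHC class I and antigen processing, 0 passed edgeR's test after adjustment and 14 had an unadjusted p below 0.05, all higher, and the median over the 20 of at least 1 CPM was 1.12. Tap1, a subunit of the peptide transporter, stood at 14.7 and 92.2 CPM in SM and DM, 2.64 ± 0.74 (adjusted p = 0.197), and the immunoproteasome subunit Psmb9 had 2.85 ± 0.83 (adjusted p = 0.242), both in the authors' deposited table. All 8 MHC class II genes of at least 1 CPM had positive log2 fold changes, from 1.12 to 3.02 with a median of 1.53. Of 12 with a row, 0 passed edgeR's test after adjustment and 9 had an unadjusted p below 0.05, all higher. Ciita, the coactivator of class II genes, stood at 6.26 CPM in SM and 50.9 CPM in DM, 3.02 ± 0.87 (adjusted p = 0.24), and the class II chain H2-Eb1 at 40.4 and 133 CPM, 1.72 ± 0.52 (adjusted p = 0.338), in the authors' deposited table. The medians of the class II list against wild type were 1.29 in SM and 2.75 in DM. Those of the IRG list were 0.25 and 4.40, and those of the GBP list 0.50 and 3.16. In SM against wild type, Ciita had 1.52 ± 0.76 and H2-Eb1 had 1.01 ± 0.47. Neither passed edgeR's test after adjustment there (adjusted p = 0.199 and 0.162). The difference between the lists was not tested.

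Chemokines were mixed. Among 34 with a row, 0 passed edgeR's test after adjustment, 6 had an unadjusted p below 0.05 with a higher and 2 with a lower level, and the median over 22 of at least 1 CPM was 0.46. The highest likelihood ratios belonged to Cxcl11 and Cxcl10, named for interferon-induced ligands of Cxcr3 that attract activated T cells. Cxcl11 is annotated as a polymorphic pseudogene, and whether these mice make its protein was not tested. Cxcl11 stood at 1.21 and 10.3 CPM in SM and DM, 3.09 ± 0.88 (adjusted p = 0.225), and Cxcl10 at 6.85 and 50 CPM, 2.87 ± 0.83 (adjusted p = 0.242), in the authors' deposited table.

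Markers of immune cells were read beside these genes, and their part in the interferon genes' rise was not tested. In whole-kidney RNA, fewer cells of a type and less RNA per cell cannot be told apart. The T and NK cell list was at low levels, with 4 of 28 genes at 1 CPM or more and a summed level of 19.9 CPM in SM and 36.2 CPM in DM. None passed edgeR's test after adjustment, and 10 had an unadjusted p below 0.05, all higher. All 10 averaged less than 1 CPM, a level that the background shares of 1.55% and 1.35% do not cover, and 0 of the 4 above it had such a p. The cytotoxic protease gene Gzmb stood at 0.157 CPM in SM and 2.9 CPM in DM (p = 0.000151, adjusted p = 0.121) in the authors' deposited table. Another protease gene of lymphocytes, Gzmk, had a p of 0.000181 and an adjusted p of 0.134 there, with a level in SM below the lowest average of the table. B and plasma cell genes, 14 with a row, summed to 11 CPM in SM and 13.1 CPM in DM, and 0 passed edgeR's test after adjustment and 1 had an unadjusted p below 0.05.

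Macrophage genes stood at similar summed levels in both groups, 859 CPM in SM and 867 CPM in DM, with a median log2 fold change of -0.02 over 28 genes of at least 1 CPM. Of 30, 0 passed edgeR's test after adjustment, and 3 had an unadjusted p below 0.05, all lower, led by Cd14, the lipopolysaccharide co-receptor, at -0.71 ± 0.27 (adjusted p = 0.857), and the integrin chain gene Itgam at -0.87 ± 0.36 (adjusted p = 1) in the authors' deposited table. The macrophage medians against wild type were 2.29 in SM and 2.23 in DM. Of 12 dendritic cell genes, 0 passed edgeR's test after adjustment and 1 had an unadjusted p below 0.05, Bst2, which encodes tetherin and is also interferon-induced, at 1.15 ± 0.49 (adjusted p = 1) in the authors' deposited table. For neutrophil genes, 0 of 13 passed edgeR's test after adjustment and 0 had an unadjusted p below 0.05. Erythroid genes leaned lower, with a median of -0.24 over 11 genes and -0.84 over the 6 of at least 1 CPM, of which 5 were negative. Their summed levels were 451 CPM in SM and 307 CPM in DM. These sums rest mainly on 1 gene, which averaged 413 CPM, against a list median of 1.02 CPM. Of the 11, 0 passed edgeR's test after adjustment and 2 had an unadjusted p below 0.05, both lower. These were Klf1, a red cell transcription factor, at -1.29 ± 0.58, and Alas2, the erythroid heme synthesis enzyme, at -1.12 ± 0.52, in the authors' deposited table (adjusted p = 1 for both).

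**Figure D3:**
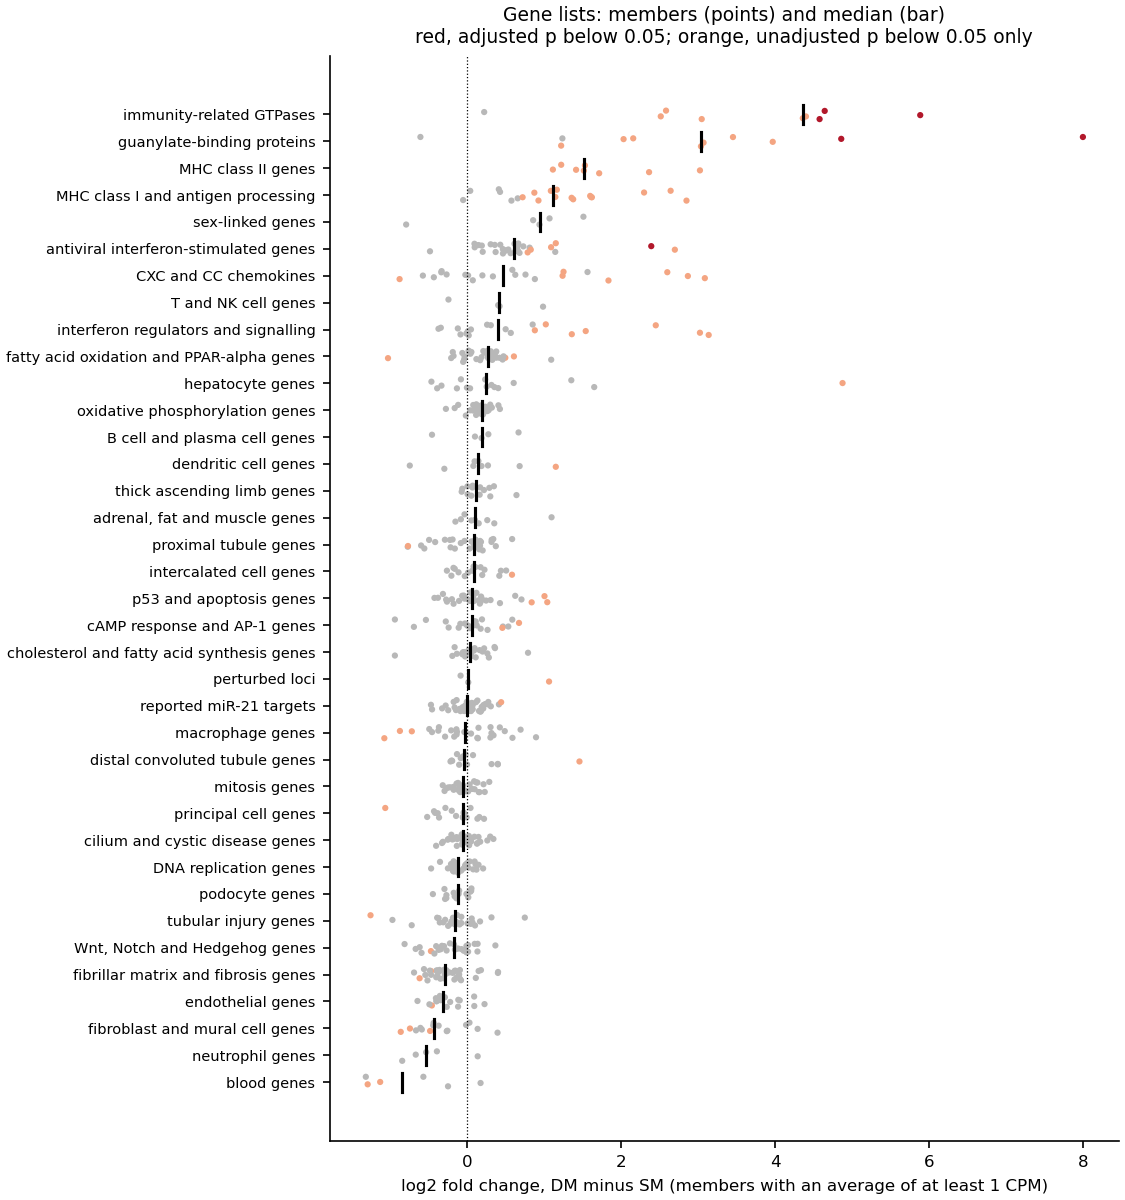
Deposited log2 fold changes of DM against SM (horizontal axis) for members of each gene list of at least 1 CPM (points; red, adjusted p below 0.05; orange, unadjusted p below 0.05 only; grey, neither), with black bars at the list medians. Immunity-related GTPases (median 4.36) and guanylate-binding proteins (median 3.04) are at the top. The fibroblast and mural cell, fibrosis, injury, cell cycle and tubule lists have medians between -0.43 and 0.12.

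Of the other genes that rose, 2 had an average of at least 1 CPM. AA465934 (chromosome 11, 83291699 to 83294632), annotated as a noncoding processed transcript, stood at 2.05 CPM in WT, 1.39 CPM in SM and 12.3 CPM in DM, a rise of 3.14 ± 0.51 (adjusted p = 9.1e-06) in the authors' deposited table. In GENCODE it overlaps Snord7 on the same strand, so its count is uncertain. Serpina3f (chromosome 12, 104214544 to 104221129), a serine protease inhibitor gene, rose from 0.333 to 8.36 CPM, by 4.65 ± 1.0 (adjusted p = 0.0113) in the authors' deposited table. The 2 genes that rose below 1 CPM were Gm15698, at 0.0816 CPM in SM and 1.19 CPM in DM (adjusted p = 7.13e-05), and 3110035E14Rik, at 0.0283 and 0.471 CPM (adjusted p = 0.0232) in the authors' deposited table. For 3110035E14Rik the WT level was 0.274 CPM, so SM lay below both other groups. Its SM level was below the lowest average, so the size of its rise depends on the prior count.

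Among the genes that fell, the peroxidase genes Lpo and Epx lie next to each other on chromosome 11. Lpo (87806428 to 87828289) encodes lactoperoxidase, which makes antimicrobial oxidants in secretions. It stood at 0.866 CPM in WT, 2.66 CPM in SM and 0.137 CPM in DM, and fell by 4.28 on the log2 scale (SE 0.51, adjusted p = 1.58e-12), the lowest adjusted p of the named genes in the authors' deposited table. Epx (87864000 to 87875536) encodes eosinophil peroxidase, a granule enzyme. It stood at 0.137 CPM in WT and 0.68 CPM in SM, and its fitted log2 fold change was -5.79 ± 0.97 (adjusted p = 2.75e-05) in the authors' deposited table. The DM level of Epx, 0.0123 CPM, was below the lowest average, so that size depends on the prior count. Mpo, the myeloperoxidase gene beside them, named after its value was seen, averaged 0.0692 CPM and had 1.37 ± 1.37 (adjusted p = 1) in the authors' deposited table.

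Adh7 (chromosome 3, 138217760 to 138233382) was the other gene of at least 1 CPM that fell. It encodes a class IV alcohol dehydrogenase that oxidizes retinol. It stood at 2.13 CPM in WT, 25.2 CPM in SM and 7.91 CPM in DM, and fell by 1.67 on the log2 scale (SE 0.39) with an adjusted p of 0.0276 in the authors' deposited table. DM thus lay between WT and SM, with log2 fold changes against wild type of 3.57 in SM and 1.89 in DM in the authors' deposited tables, which share the WT libraries.

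The remaining 4 genes that fell averaged less than 1 CPM. Trpv3 (chromosome 11, 73267388 to 73300363), a heat-sensitive cation channel gene, stood at 0.346 CPM in WT, 0.271 CPM in SM and 0.012 CPM in DM, with an adjusted p of 0.0174 in the authors' deposited table, and its DM level was below the lowest average. Pcdhgb8, of the clustered gamma protocadherins, stood at 1.31 CPM in SM and 0.269 CPM in DM, and fell by 2.28 on the log2 scale (SE 0.54) with an adjusted p of 0.0357 in the authors' deposited table. It overlaps 25 genes on its strand, so its count is uncertain. Gm8615, a processed pseudogene that overlaps Hmgb1 on the same strand, stood at 2.19 and 0.124 CPM (adjusted p = 0.0306), and 1700007B14Rik stood at 0.814 and 0.0308 CPM (adjusted p = 0.00917) in the authors' deposited table. The DM level of 1700007B14Rik was below the lowest average, so the size of its fall depends on the prior count. Of the 18 genes, Gbp6, Pcdhgb8 and Tgtp2 lay just inside the threshold.

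Between an adjusted p of 0.05 and 0.1 lay 7 further genes, 6 higher and 1 lower, each named after its value was seen apart from the 3 just outside. Gm12185 and Gbp4 belong to the GTPases, at 3.72 ± 0.94 and 3.45 ± 0.89 in the authors' deposited table. Pde4c, a phosphodiesterase gene that degrades cyclic AMP, stood at 114 CPM in WT, 36.5 CPM in SM and 80.7 CPM in DM, 1.14 ± 0.29 (adjusted p = 0.0775) in the authors' deposited table. Lzts1, a leucine zipper gene, had -1.95 ± 0.50 (adjusted p = 0.0969) there.

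The genes that passed were unevenly placed in the genome. Chromosome 11, which carries the miR-21 gene, held 9 of the 18, among 1730 named genes with a position (0.52%), and 6 of these were higher and 3 lower. Chromosome 5 held 3, chromosome 18 held 2, and chromosomes 1, 3, 8 and 12 held 1 each. Within 5 Mb of the miR-21 gene, 4 of 143 named genes passed (2.8%): AA465934 at -3.29 Mb, Lpo at 1.23 Mb, Epx at 1.29 Mb and Gm15698 at 2.38 Mb, where negative distances have lower coordinates. Between 5 and 15 Mb, 2 of 492 passed (0.407%), Xaf1 at -14.28 Mb and Trpv3 at -13.30 Mb. The other 3 of the 9, Igtp, Tgtp1 and Tgtp2, lie -28.38, -37.59 and -37.52 Mb away, where 3 of 1095 genes passed (0.274%). On all other chromosomes 9 of 21149 passed (0.0426%).

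The unadjusted p among genes of at least 1 CPM was also most often low within 5 Mb, while the outer bins did not keep the order of the adjusted calls. Within 5 Mb, 18 of 96 had p below 0.05 (18.8%), 5 higher and 13 lower. Between 5 and 15 Mb it was 11 of 306 (3.59%), beyond 15 Mb 32 of 758 (4.22%), and on the other chromosomes 2.68% of 12763. Genes near a targeted allele travel with it through breeding, and the sources used here do not give the strain background of the groups. Whether the neighbourhood of the allele differs in strain of origin between SM and DM was not tested.

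**Figure D4:**
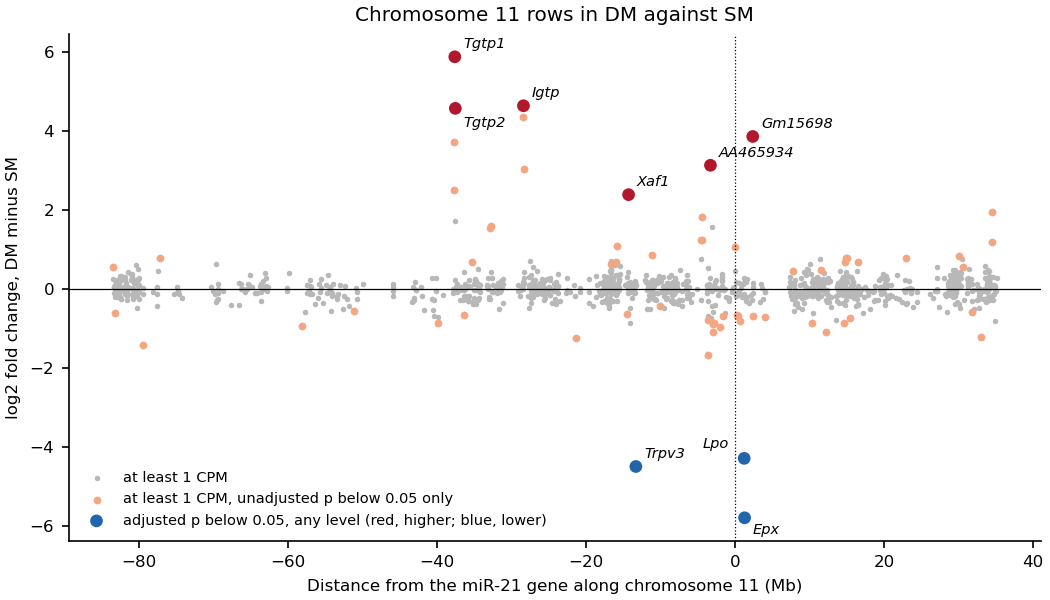
Deposited log2 fold change of DM against SM (vertical axis) by distance from the miR-21 gene in Mb (horizontal axis) for chromosome 11 genes of at least 1 CPM (grey; orange at unadjusted p below 0.05 only) and for the 9 genes at adjusted p below 0.05 at any level (red, higher; blue, lower). AA465934, Lpo, Epx and Gm15698 sit within 5 Mb, and Tgtp1, Tgtp2 and Igtp sit at -37.59, -37.52 and -28.38 Mb.

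Genes reported in the literature as miR-21 targets had a median log2 fold change of 0.00. All 41 with a row were at 1 CPM or more, with a range of -0.47 to 0.45 and 21 positive against 20 negative. None passed edgeR's test after adjustment, and 1 had an unadjusted p below 0.05. That gene was Reck, a membrane inhibitor of matrix metalloproteases, at 29.4 CPM in SM and 40.1 CPM in DM, 0.45 ± 0.20 (p = 0.0263, adjusted p = 1) in the authors' deposited table. Cdc25a, a phosphatase that drives the cell cycle, stood at 14.4 and 19.3 CPM, 0.42 ± 0.23 (adjusted p = 1). Pdcd4, the translation inhibitor most often used as a miR-21 reporter target, stood at 68.1 CPM in SM and 61 CPM in DM, -0.16 ± 0.21 in the authors' deposited table. Spry1, an inhibitor of receptor tyrosine kinase signalling, had -0.17 ± 0.20 there. These 4 genes hold the 8mer sites printed above, and their signs differ. Over the 18 reported targets with an 8mer in the annotated 3′ UTR, 8 were positive and the median was -0.01.

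The search was then extended to all genes. Of 12818 genes of at least 1 CPM with an annotated 3′ UTR, 317 held the 8mer ATAAGCTA, 723 held ATAAGCT without it (the 7mer that pairs with bases 2 to 8), and 589 held only TAAGCTA (the 7mer that pairs with bases 2 to 7 and ends in A). The median log2 fold changes were -0.009, -0.020 and -0.023 in that order, and -0.002 over the 11189 genes with none of these words. Median 3′ UTR lengths were 2960, 2750 and 2520 bases in the word classes and 1040 bases with no word. Length therefore differs along with the word, and the classes were not matched for it. The share of positive values was 47.9% for the 8mer and 49.5% for no word. In the 8mer class, 0 genes passed edgeR's test after adjustment, and 7 (2.21%) were higher at an unadjusted p below 0.05, against 1.51% of genes with no word, and 1.11% and 1.36% in the 7mer classes. Of the 12 genes that passed and have a 3′ UTR, 10 held no word, and Tgtp1 and Tgtp2 held the shorter 7mer alone. The medians of the word classes differed from that of genes with no word by -0.007 to -0.020, and whether the classes differ was not tested. Effects on translation are not measured by these libraries.

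**Figure D5:**
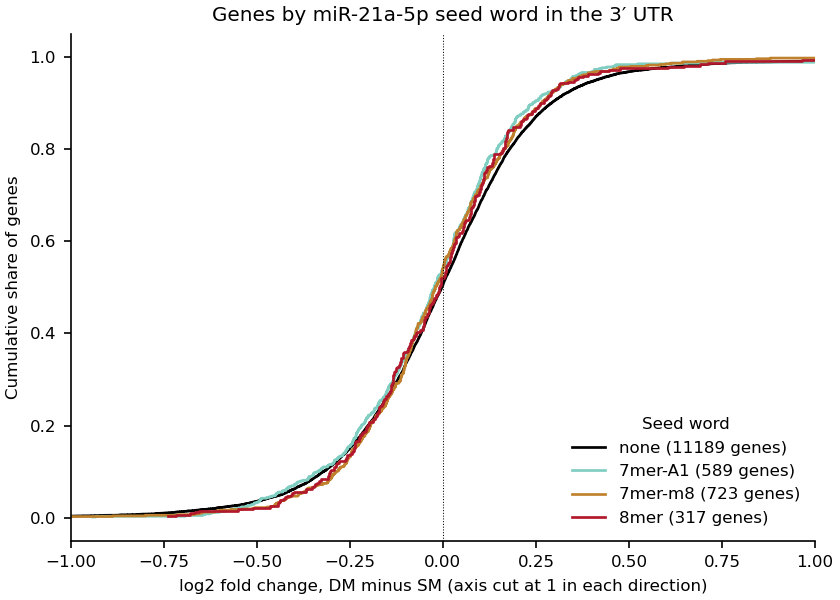
Cumulative share of genes (vertical axis) by deposited log2 fold change of DM against SM (horizontal axis, cut at 1 in each direction) for genes of at least 1 CPM, with 1 curve for each class of miR-21 seed word in the 3′ UTR. The curves of genes with an 8mer (317), a 7mer (723 and 589) or no word (11189) cross the middle close together, with medians of -0.009, -0.020, -0.023 and -0.002.

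Injury, fibrosis and growth genes, which define the cystic kidney, were read for a change with miR-21 loss. Among 30 tubular injury genes, 0 passed edgeR's test after adjustment and 1 had an unadjusted p below 0.05. The median was -0.15 over 29 genes of at least 1 CPM, and the medians against wild type were 1.61 in SM and 1.60 in DM. The gene with the low p was Sprr2f, an epithelial cornified envelope gene, at -1.25 ± 0.54 (adjusted p = 1), and the cytokine receptor gene Tnfrsf12a stood at 0.75 ± 0.39 in the authors' deposited table. The standard injury markers, named after their values were seen, were Lcn2 at 250 CPM in SM and 196 CPM in DM, -0.35 ± 0.31, and Havcr1 at 67.9 and 41.4 CPM, -0.72 ± 0.58, in the authors' deposited table (adjusted p = 1 for both).

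Matrix and fibrosis genes leaned lower by small amounts. Of 36, 31 had negative log2 fold changes, with a median of -0.28 and a range of -0.69 to 0.41, and 0 passed edgeR's test after adjustment and 2 had an unadjusted p below 0.05, both lower. Both encode chains of collagen VI, Col6a2 at -0.61 ± 0.25 (114 CPM in SM, 74.5 CPM in DM) and Col6a1 at -0.46 ± 0.22 (142 and 103 CPM) in the authors' deposited table (adjusted p = 1 for both). The summed level of the list was 11600 CPM in SM and 9680 CPM in DM. Fibroblast and mural cell genes had a median of -0.43 over 15 genes of at least 1 CPM, with 12 negative, and 0 of 16 passed edgeR's test after adjustment and 3 had an unadjusted p below 0.05, all lower. Rgs5, a pericyte gene that dampens G protein signalling, stood at 282 and 169 CPM, -0.74 ± 0.24 (adjusted p = 0.53), and the PDGF receptor gene Pdgfrb at 139 and 100 CPM, -0.48 ± 0.23 (adjusted p = 1), in the authors' deposited table. Endothelial genes had a median of -0.31 with 15 of 18 negative, and 0 passed edgeR's test after adjustment and 1, Ehd3, had an unadjusted p below 0.05.

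Sex-linked genes, all named after their values were seen, were read because the sources used here do not give the sex of the mice. The 4 Y-linked genes Ddx3y, Eif2s3y, Kdm5d and Uty stood higher in DM, at 0.94 ± 1.95, 0.86 ± 1.89, 1.51 ± 1.91 and 1.07 ± 2.07 in the authors' deposited table (adjusted p = 1 for each). Xist, which silences an X chromosome in females, stood at 686 CPM in SM and 398 CPM in DM, -0.79 ± 1.61, and its antisense partner Tsix at 1.14 and 0.0209 CPM (p = 0.000222, adjusted p = 0.151) in the authors' deposited table. The DM level of Tsix was below the lowest average, so the size of its difference depends on the prior count. The part of the sexes in the genes that passed was not tested.

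Proliferation genes had medians near 0. All 30 mitosis genes lay between -0.31 and 0.29 with a median of -0.05, and their medians against wild type were 1.57 in SM and 1.49 in DM. The 30 DNA replication genes had a median of -0.12. In both lists 0 genes passed edgeR's test after adjustment and 0 had an unadjusted p below 0.05. Among 34 p53 and apoptosis genes the median was 0.08, and 0 passed edgeR's test after adjustment and 3 had an unadjusted p below 0.05, all higher. These include the inflammatory caspase gene Casp4 at 1.04 ± 0.36 (adjusted p = 0.63) and the stress hormone gene Gdf15 at 1.01 ± 0.35 (adjusted p = 0.707) in the authors' deposited table.

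Epithelial segment lists had medians close to 0. Proximal tubule genes had a median of 0.09 over 32 genes, thick ascending limb genes 0.12 over 14, distal convoluted tubule genes -0.03 over 14, principal cell genes -0.05 over 19 (15 of them negative), intercalated cell genes 0.09 over 17 and podocyte genes -0.12 over 16. In these lists together 0 genes passed edgeR's test after adjustment. At an unadjusted p below 0.05 stood 1 gene of the proximal tubule, distal convoluted tubule, principal cell and intercalated cell lists each, and 0 genes of the other lists. Pvalb, a calcium-binding protein of the distal convoluted tubule, stood at 1.29 CPM in SM and 3.55 CPM in DM, 1.46 ± 0.40 (adjusted p = 0.175), beside log2 fold changes against wild type of -3.68 in SM and -2.22 in DM, in the authors' deposited tables. Elf5, a transcription factor of principal cells, stood at 48.6 and 23.3 CPM, -1.06 ± 0.35 (adjusted p = 0.586), and Slc4a9, an anion exchanger of intercalated cells, at 52.2 and 78.3 CPM, 0.59 ± 0.22 (adjusted p = 0.87), in the authors' deposited table.

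Metabolic lists leaned higher by small amounts. Of 32 oxidative phosphorylation genes, 28 were positive with a median of 0.20, and 0 passed edgeR's test after adjustment and 0 had an unadjusted p below 0.05. Of 37 genes of fatty acid oxidation and PPAR-alpha of at least 1 CPM, 29 were positive with a median of 0.27, and 0 of 38 passed edgeR's test after adjustment, with 2 higher and 1 lower at an unadjusted p below 0.05. Acaa1b, a peroxisomal thiolase gene, had 0.61 ± 0.27, and Pdk4, the kinase that turns off pyruvate dehydrogenase, had -1.02 ± 0.49, in the authors' deposited table (adjusted p = 1 for both). The medians against wild type were -0.98 in SM and -0.84 in DM for oxidative phosphorylation, and -0.61 and -0.47 for fatty acid oxidation.

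Among signalling lists tied to cyst growth, Wnt, Notch and Hedgehog genes leaned lower, with a median of -0.17 and 21 of 27 genes of at least 1 CPM negative. The medians of the other lists were 0.07 for cyclic AMP response and AP-1 genes, -0.05 for cilium and cystic disease genes and 0.04 for cholesterol and fatty acid synthesis genes. In these 4 lists 0 genes passed edgeR's test after adjustment. Unadjusted p below 0.05 was reached by the Wnt receptor gene Fzd1 (-0.47 ± 0.21), the cyclic AMP-responsive repressor gene Crem (0.68 ± 0.27) and the kinase gene Sik1 (0.46 ± 0.21), in the authors' deposited table.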

How the data were processed

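Whole-kidney RNA of 10 mice was sequenced after miRNeasy extraction and stranded total RNA library preparation, per the protocols in the labels. Tools named in the submitters' processing notes are edgeR 3.2.4, featureCounts, Subread 1.4.6, Cufflinks, TopHat2 2.0.12 and bcl2fastq 1.8.4, with the build mm10, and the sources used here do not give the role of each. Groups came from the genotype labels. The authors deposited 3 tables of comparisons. Per the file headers, each row holds an average log2 CPM, a log2 fold change, a likelihood ratio score, a p-value and its false discovery rate. Checked on all 30431 rows, the deposited averages were identical in the 3 tables, DM against SM equalled the difference of the other pair, p was the chi-square tail of the score, and the adjusted p was the Benjamini-Hochberg value over all rows.

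No new fit was possible on such tables, so the authors' calls at adjusted p below 0.05 were used. The implied SE is the size of the log2 fold change over the root of its likelihood ratio score, and its script was tested on simulated data. Group levels in CPM weight the 10 libraries equally and are approximate; near the lowest average, 0.0514 CPM, they depend on the prior count of the authors' edgeR fit. Depth is unknown. The genes and the 37 lists (850 of 857 entries had a row) were chosen with earlier results of these data known, so list counts and medians are descriptions, with no set test. Genes are named by a written rule: the perturbed loci, the genes that passed, the 3 on each side of the threshold, and in each list up to 4 that passed or the 2 with the largest likelihood ratio. A gene that this rule names among the interferon regulators is not reported here. Genes named beyond it are said to be, except for the kidney genes that check the tissue, the 4 genes whose sites are printed and 4 genes named for their promoter words. Positions came from GENCODE M 21 on GRCm38 for 22879 named rows, 1260 by synonym, and seed words were searched in its annotated 3′ UTRs. Alternatives were the p threshold, the rows adjusted over and the filters on level and UTR length. Python 3.11.15, pandas 2.3.3 and scipy 1.17.1 were used.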

Additional observations from a re-analysis of the deposited data

Results flagged for a closer look

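Outside the named genes, 6 assembled loci without a gene name passed at adjusted p below 0.05 in DM against SM, all higher, in rows that the comparison of named genes does not use. The tables give no position for them. In the authors' deposited table their log2 fold changes were 10.94 ± 1.97 (SE, adjusted p = 0.000173), 4.38 ± 0.95 (adjusted p = 0.0122), 6.16 ± 1.38 (adjusted p = 0.0177), 6.76 ± 1.53 (adjusted p = 0.0218), 3.97 ± 0.92 (adjusted p = 0.0252) and 5.82 ± 1.36 (adjusted p = 0.0276), from edgeR's likelihood ratio test. The locus at 6.16 stood at 0.296 CPM in SM and 21.2 CPM in DM. The other 5 had SM levels below the lowest average of the table, 0.0514 CPM, so their sizes depend on the prior count and are no bounds.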

How the results depend on the processing

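Of the 18 named genes that passed, 6 passed at an adjusted p below 0.01 and 25 genes passed below 0.1. With p adjusted over rows of at least 1 CPM the count was 11, which are the 11 of that level that passed before, with 0 added; the lower count follows from the 7 genes below 1 CPM not being tested. Adjusting over named genes only, or asking for an absolute log2 fold change of at least 1, left 18. Of the named genes of at least 1 CPM, 75 of 75 stayed on their side of the threshold when p was adjusted over such rows. Leaving out genes below 1 CPM moved the medians of 3 of 37 lists by more than their median SE: immunity-related GTPases from 2.58 to 4.36, T and NK cell genes from 1.12 to 0.42 and blood genes from -0.24 to -0.84. The differences in median between genes with a seed word and none were -0.007 (8mer), -0.018 and -0.020 (7mers), then -0.005, -0.005 and -0.019 at 5 CPM or more, and 0.000, -0.009 and -0.012 for 3′ UTRs of at least 200 bases. In that last setting genes with no word had a median length of 1190 bases, so lengths still differed between the classes. No paired analysis was possible because the tables hold no library and the animal numbers are not shared between groups. For the same reason no replicate could be left out, and no other normalization or count test was run. The sex-linked list had a median SE 7.22 times that of genes of like level.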

Other observations

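Genes of other tissues were low or variable. Among 22 adrenal, fat and muscle genes, 0 passed edgeR's test after adjustment and 2 had an unadjusted p below 0.05, both lower in DM and both enzymes of catecholamine synthesis. Dbh had 0.351 CPM in SM (adjusted p = 0.151) and Th 0.229 CPM in SM (adjusted p = 0.892) in the authors' deposited table, with DM levels below the lowest average. Among 24 hepatocyte genes, 0 passed edgeR's test after adjustment and 1 had an unadjusted p below 0.05, Serpina3k (adjusted p = 0.987), whose levels in SM, 0.00323 CPM, and DM, 0.0949 CPM, are at or near the lowest of the table.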
